A study of Mus musculus with 46 samples.

Results

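RNA sequencing counts from spinalis muscle of DHT-treated female mice were compared between *Actn3* knockout (KO) and wild-type (WT) animals. All 6 KO-DHT and 6 WT-DHT columns of the spinalis count table were taken, and every gene of that table was tested, which makes 12 of the 46 samples described for the series, of which 45 have a column. In the study, female C57BL6 mice, WT or globally lacking *Actn3*, were given a 1 cm silastic implant under the skin at 4 to 5 weeks of age, which held 10 mg of dihydrotestosterone (DHT) or was empty, and spinalis was taken after 6 weeks. The 5 KO-empty and 5 WT-empty females are used here for side-by-side values. Male gastrocnemius after a sham operation (6 KO-SHAM and 6 WT-SHAM columns) or orchidectomy (5 KO-ORX and 6 WT-ORX columns), performed at 8 to 10 weeks with muscle taken 12 weeks later, served for directions and calls only. Each column is 1 library, and the spinalis columns carry mouse numbers by which single libraries are named below.

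α-Actinin-3, the product of *Actn3*, crosslinks actin filaments at the Z-disc of fast glycolytic fibres, where the related α-actinin-2 is found in all fibres. DHT is a potent androgen, formed in tissues from testosterone. Ornithine decarboxylase, an enzyme of polyamine synthesis, is a known androgen-responsive product of muscle.

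Depth in WT-DHT ranged from 34.8 to 53.9 M counts with a median of 52.0 M, and in KO-DHT from 34.9 to 51.7 M with a median of 44.2 M. WT-DHT mouse 39 was the shallowest of its group, with 34.8 M counts against 50.5 to 53.9 M in the others. The same library had the lowest TMM scaling factor of the 12, 0.846, and its 10 most abundant genes took 43.2% of its counts. Skeletal muscle fibre markers were abundant in every library, with summed levels of 224000 to 315000 CPM (counts scaled by TMM to a common library total) in WT-DHT and 222000 to 283000 in KO-DHT. *Acta1*, skeletal α-actin, had the highest level per exon length among them. *Xist*, transcribed from the inactive X chromosome of females, lay between 86.7 and 134 CPM in all 12 libraries, and the Y-linked genes looked for are not among the genes of the table.

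The knocked-out gene followed the labels. *Actn3* was at 6164 to 7703 CPM in WT-DHT with a median of 7276, and at 61.4 to 77.5 in KO-DHT with a median of 66.8. Every KO-DHT library lay far below every WT-DHT library, although each still held between 2133 and 3407 reads on the gene. The log2 fold change of KO-DHT over WT-DHT was −6.71, with a standard error (SE) of 0.11 and an adjusted p of 2.6e-23 (quasi-likelihood test of edgeR, Benjamini-Hochberg adjustment). All SEs here were derived from the F statistic, and all adjusted p-values come from this test unless another tool is named.

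Among the other α-actinins, *Actn2* rose. It was at 189 to 291 CPM (median 246) in WT-DHT and at 313 to 433 (median 374) in KO-DHT, with no overlap between the groups. Its log2 fold change was 0.65 (SE 0.12, edgeR adjusted p = 0.00036). The nonmuscle forms did not pass the test, with log2 fold changes of −0.19 for *Actn1* and 0.06 for *Actn4*, which shares exon sequence with *Capn12* on the other strand.

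Across the transcriptome, 1978 of 16987 genes (11.6%) were called at an adjusted p of 0.01 or less. Of these, 872 were higher in KO-DHT (5.13% of the genes tested) and 1106 were lower (6.51%). Log2 fold changes of 1 or more in size were reached by 100 of the higher and 223 of the lower genes, and the median absolute change of called genes was 0.47. The ranges of the groups did not overlap for 657 of the higher and 828 of the lower genes, and over all genes tested KO-DHT lay wholly above WT-DHT for 804 and wholly below for 961. Scaling by library size in place of TMM changed the balance, with 1295 genes higher and 687 lower, or 65.3% higher against 44.1%, and moved the median log2 fold change of all genes from 0.0064 to 0.088. Of the 1978 genes, 1380 were called in each of the 12 fits that left out 1 mouse, 594 of them higher and 786 lower.

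**Figure D1:**
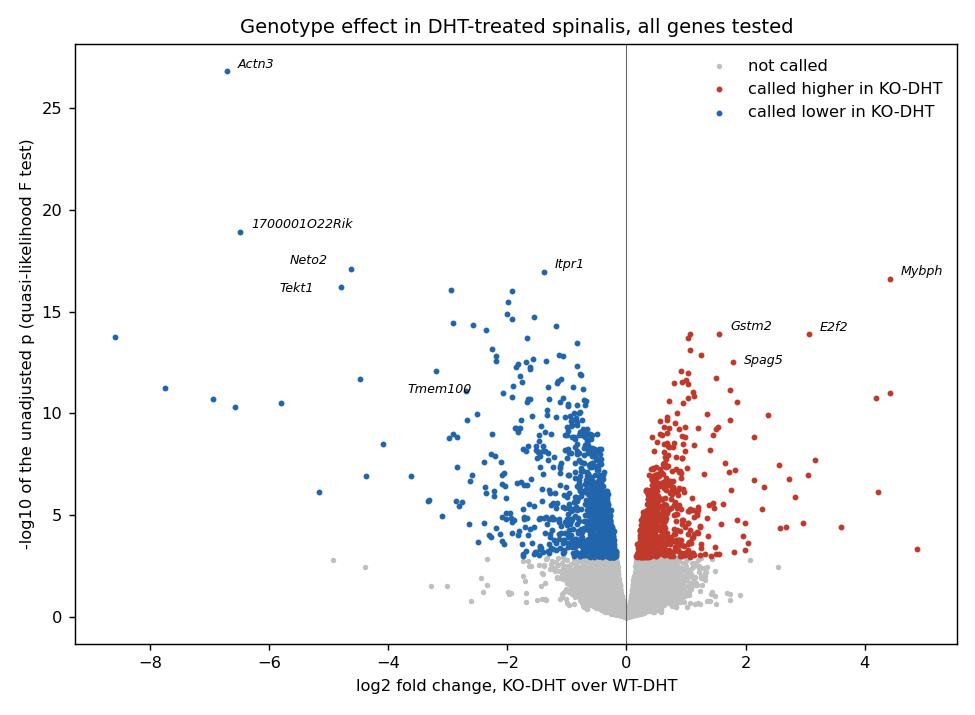
Each point is 1 of the 16987 genes, placed by its log2 fold change of KO-DHT over WT-DHT and by the negative log10 of its unadjusted p. Red points are the 872 genes called higher and blue points the 1106 called lower, and *Actn3* stands at −6.71 on the horizontal axis.

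The first principal component of the 12 libraries held 29.3% of the variance, and 98.2% of the variance of its scores lay between genotypes. All WT-DHT scores were negative, from −30.2 to −22.4, and all KO-DHT scores were positive, from 18.5 to 32.6. The second component, with 11.1%, spread mice within each genotype, and WT-DHT mouse 39 had its lowest score, −33.4.

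After *Actn3*, the smallest p among lower genes belonged to *1700001O22Rik*, a gene without a well-established role in muscle. It was at 40.6 to 60.3 CPM (median 50.1) in WT-DHT and at 0.21 to 1.17 (median 0.51) in KO-DHT, a log2 fold change of −6.49 (SE 0.23). The KO-DHT libraries held 11 to 51 reads each. *Neto2*, an auxiliary subunit of kainate receptors, was at 55.7 to 89.5 CPM in WT-DHT (median 68.8) and at 1.93 to 4.01 in KO-DHT (median 2.69), and its log2 fold change was −4.63 (SE 0.20). *Tekt1*, a microtubule protein of cilia, went from 23.4 to 40.7 CPM (median 32.0) in WT-DHT to 0.73 to 1.44 (median 1.29) in KO-DHT. The groups were far apart for each of these genes, and the KO-DHT levels were close to the limit of detection for *Tekt1* and *1700001O22Rik*. *Itpr1*, the inositol trisphosphate receptor that releases calcium from internal stores, was more abundant and fell less. It was at 135 to 162 CPM (median 143) in WT-DHT and at 52.2 to 58.5 (median 56.7) in KO-DHT, and fell by 1.39 on the log2 scale (SE 0.061, adjusted p = 4.8e-14). Its groups were tight and did not overlap. Also lower were *Cacna2d4* (−2.95), which encodes a calcium channel subunit, *Ntmt1* (−1.92), an N-terminal methyltransferase, and *Plekho1* (−2.00), which has a pleckstrin homology domain.

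Among higher genes, *Mybph* had the smallest p. *Mybph* encodes myosin binding protein H, a thick filament protein. It was at 4.68 to 15.2 CPM (median 10.2) in WT-DHT and at 182 to 221 (median 206) in KO-DHT, and its log2 fold change was 4.43 (SE 0.20, edgeR adjusted p = 8.2e-14). Not a single mouse of either group came near the range of the other. *Mybph* shares exon sequence with *Adora1*, read from the other strand, and the strand setting of the read counting is not given in the sources used here. *Adora1*, an adenosine receptor gene looked at after the values had been seen, was far less abundant, at 0.45 to 1.22 CPM in WT-DHT and 3.26 to 6.62 in KO-DHT, so that reads of this pair cannot be assigned with certainty.

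*E2f2*, a transcription factor of the cell cycle, rose from 0.80 to 2.03 CPM in WT-DHT (median 1.57) to 9.15 to 14.5 in KO-DHT (median 12.9), with a log2 fold change of 3.06 (SE 0.18). *Gstm2*, a glutathione transferase, was at 7.49 to 10.9 CPM (median 8.80) in WT-DHT and at 22.9 to 30.4 (median 25.6) in KO-DHT, with a log2 fold change of 1.56 (SE 0.093). Both genes had separate ranges. *Ivd*, an enzyme of leucine breakdown in mitochondria, was at 52.5 to 65.9 CPM (median 58.3) in WT-DHT and at 117 to 132 (median 125) in KO-DHT, with a log2 fold change of 1.07 (SE 0.064). *Spag5*, a protein of the mitotic spindle, rose by 1.78. *Obsl1*, a cytoskeletal adaptor related to obscurin, rose by 1.25. *Cpe*, carboxypeptidase E, rose by 1.03, and *Ociad2*, a mitochondrial protein, by 1.07.

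Polyamine metabolism was among the lists with the greatest shares of called genes. Of 12 members tested, 6 fell and 2 rose, against 6.51% and 5.13% of all genes, and the list median was −0.29. *Smox*, spermine oxidase, was at 599 to 1009 CPM (median 762) in WT-DHT and at 118 to 229 (median 153) in KO-DHT, a log2 fold change of −2.27 (SE 0.15, edgeR adjusted p = 5.2e-11). *Odc1*, ornithine decarboxylase and the entry enzyme of the pathway, was at 253 to 355 CPM (median 305) in WT-DHT and at 83.6 to 114 (median 104) in KO-DHT, a log2 fold change of −1.62 (SE 0.12). For both enzymes each KO-DHT mouse was below each WT-DHT mouse. *Sms*, spermine synthase, fell by 0.68. *Amd1*, which makes the aminopropyl donor, fell by 0.93, and its near-identical copy *Amd2*, added after its value was seen, by 0.99, and reads could be split between these copies, so their separate values are uncertain. The remaining called members were also named after their values had been seen. *Azin1*, an antizyme inhibitor that protects ornithine decarboxylase, fell by 0.43, whereas *Oaz2*, an antizyme that opposes it, rose by 0.59. *Azin1* was not called with library-size scaling (−0.345, edgeR adjusted p = 0.0103). Nor was it called with runs of consecutive mouse numbers as a replicate block (−0.385, edgeR adjusted p = 0.0207). Some of these runs hold mice of a single genotype, so fewer mice inform the comparison under that block. *Sat1*, which acetylates polyamines for breakdown, was higher by 0.40 but was called in only 5 of the 12 fits without 1 mouse.

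**Figure D2:**
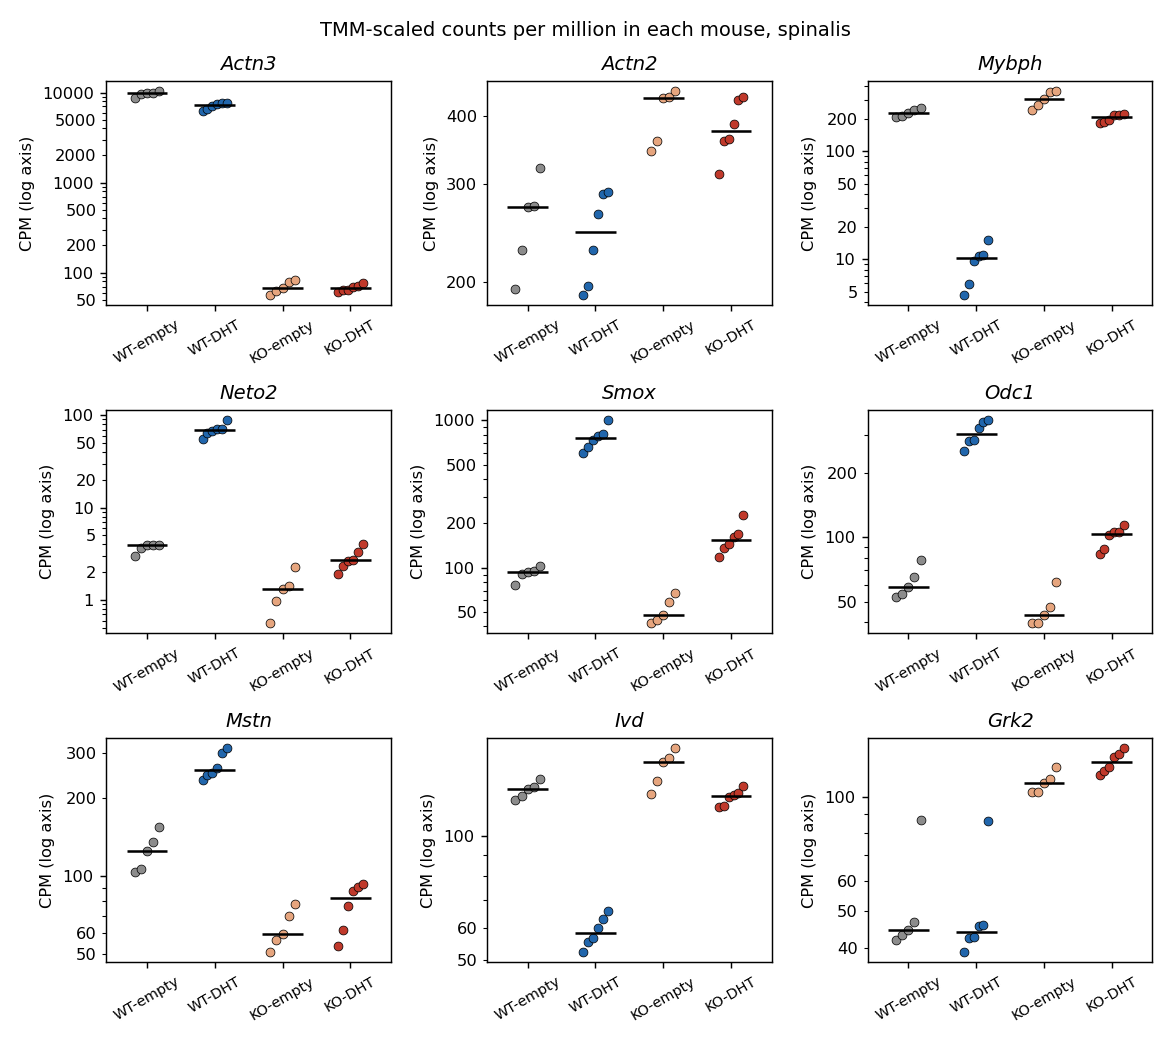
Each point is the TMM-scaled CPM of 1 mouse on a log axis, for 9 genes in the 4 spinalis groups, and horizontal bars are group medians. *Mybph* is low in WT-DHT alone, with 4.68 to 15.2 CPM, while *Neto2*, *Smox*, *Odc1* and *Mstn* are highest in WT-DHT, and 1 mouse of each WT group stands above its group for *Grk2*.

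Myostatin and BMP signalling held 7 lower and 1 higher genes among 26 tested, against 6.51% and 5.13% of all genes, with a median of −0.26. *Mstn*, the secreted inhibitor of muscle growth, was at 236 to 313 CPM (median 257) in WT-DHT and at 53.7 to 93.4 (median 81.9) in KO-DHT, a log2 fold change of −1.80 (SE 0.13, edgeR adjusted p = 5.7e-10). *Gdf11*, its closest relative, was at 18.6 to 27.2 CPM (median 23.8) in WT-DHT and 5.24 to 8.60 (median 7.63) in KO-DHT, and fell by 1.67. *Tmem100*, a membrane protein regulated by BMP signalling, was at 62.6 to 104 CPM (median 76.0) in WT-DHT and 5.01 to 14.7 (median 7.13) in KO-DHT, and fell by 3.20. None of these ranges overlapped between genotypes. Downstream members named after their values had been seen were *Smad3*, a signal transducer, at −0.86, and the activin receptor gene *Acvr2a* at −0.43. A further activin receptor gene named in this way, *Acvr2b*, was the higher member (0.44). It was called in 4 of the 12 fits without 1 mouse and not with limma-voom (adjusted p = 0.011).

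*Fkbp5*, a chaperone of steroid receptors, was at 47.0 to 128 CPM (median 83.8) in WT-DHT and 21.98 to 46.3 (median 29.4) in KO-DHT, and fell by 1.33 (SE 0.26). Its ranges lay close together without overlap. *Tceal7*, at 7.15 to 14.8 CPM in WT-DHT and 18.8 to 49.0 in KO-DHT, rose by 1.66, and its exons overlap those of *Bex1* on the other strand. Of 20 genes of IGF1 signalling, 4 fell and 0 rose (6.51% and 5.13% of all genes), with a median of −0.19. DESeq2 and limma-voom also called 4 lower and 0 higher, and 9 were lower and 1 higher at an unadjusted p under 0.05. *Akt1*, a kinase of this pathway, fell by 0.46. *Eif4ebp1*, a repressor of translation, and the kinase gene *Akt2* were called in 9 and 6 of the 12 fits without 1 mouse, and neither was called with library-size scaling (adjusted p = 0.020 and 0.044).

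Many genes of oxidative metabolism rose. Among nuclear genes for subunits of complexes II to V of the respiratory chain, 20 of 40 rose, against 5.13% of all genes, with a median of 0.28 against 0.0064. The same 5.13% higher and 6.51% lower stand beside the lists that follow. Complex I had 12 higher genes and 1 lower among 37, with a median of 0.21, and the lower one, seen only after testing, was *Ndufs4* (−0.25, called in 8 of the 12 fits without 1 mouse). The TCA cycle and pyruvate entry had 14 higher genes of 28 (median 0.28), and fatty acid uptake and β-oxidation had 10 of 26 (median 0.31). In complexes II to V, the TCA cycle and β-oxidation 0 genes were called lower by edgeR, DESeq2 or limma-voom, and at an unadjusted p under 0.05 the number lower was 1, 0 and 0. All these medians were positive with each of the 3 scalings.

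*Sdhb*, the iron-sulfur subunit of succinate dehydrogenase, was at 282 to 309 CPM (median 296) in WT-DHT and at 377 to 416 (median 407) in KO-DHT, a log2 fold change of 0.45 (SE 0.063). *Got1*, the cytosolic aspartate transaminase of the malate shuttle, was at 184 to 236 CPM (median 213) in WT-DHT and at 302 to 375 (median 344) in KO-DHT, a log2 fold change of 0.67 (SE 0.080). The ranges of both genes were separate. Similar rises were found for *Dlst* (0.38), of the oxoglutarate dehydrogenase complex, *Acads* (0.45), the short-chain acyl-CoA dehydrogenase, *Slc25a20* (0.47), the carnitine carrier of the inner membrane, and the complex I subunit *Ndufs8* (0.36). The mitochondrial ribosome had 12 higher and 0 lower of 77 (median 0.13), against 5.13% higher and 6.51% lower of all genes, and DESeq2 called 16 higher and 0 lower, limma-voom 13 and 0, while an unadjusted p under 0.05 was met by 34 and 2. Genes encoded by mitochondrial DNA did not pass, 0 of 9 with each of the 3 tools, with 2 higher at an unadjusted p under 0.05 and a median of 0.18. All 9 tested, of 15 members, had log2 fold changes above zero (0.062 to 0.375). Their median varied between KO-DHT mice with a standard deviation of 0.32, against 0.044 for complexes II to V. A difference could therefore have gone undetected. Among regulators of mitochondrial biogenesis 1 of 17 was called, *Perm1* (0.33), in 6 of the 12 fits without 1 mouse.

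**Figure D3:**
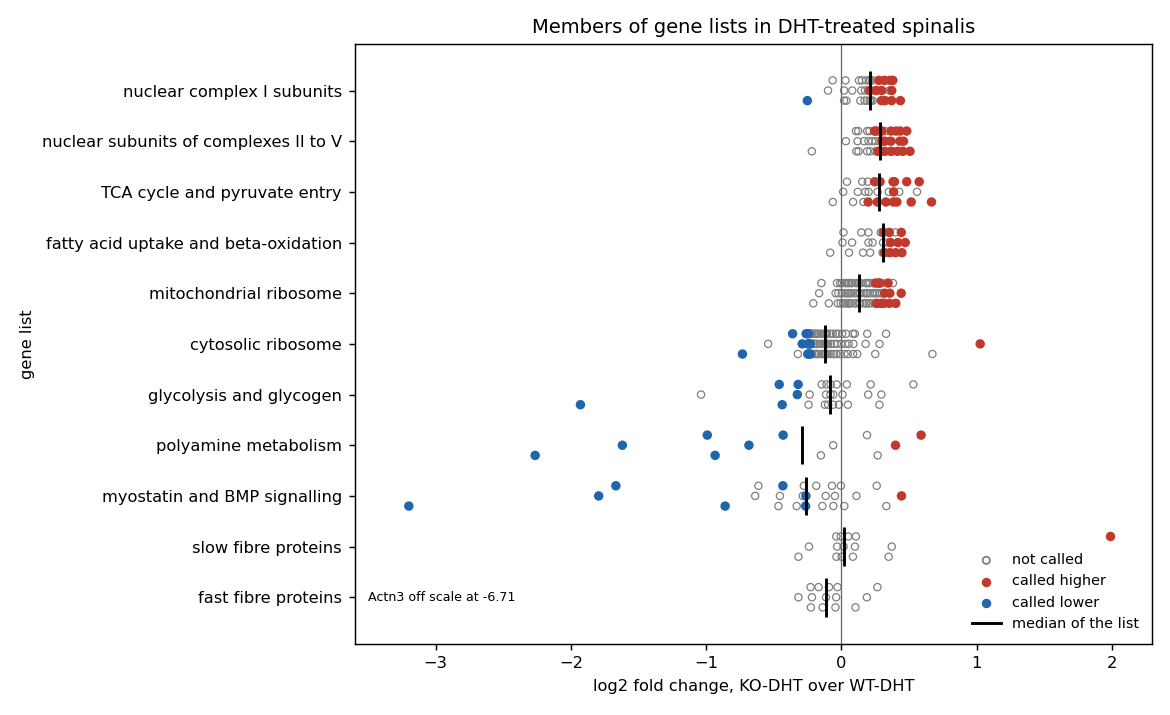
Points are the log2 fold changes of KO-DHT over WT-DHT for the members of 11 gene lists, filled where called higher (red) or lower (blue), and vertical bars are list medians. The mitochondrial lists lie mostly right of zero, with 20 of 40 genes called for complexes II to V. The slow and fast fibre lists have medians of 0.016 and −0.11, with 9 and 3 of 15 members above zero. *Actn3*, at −6.71, is written at the edge. With library-size scaling the median of glycolysis and glycogen is above zero (0.006).

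Glycolysis and glycogen went the other way for its called members, with 5 lower and 0 higher of 27 (6.51% and 5.13% of all genes), and its median of −0.081 became 0.006 with library-size scaling. DESeq2 called 6 lower and 2 higher, limma-voom 5 and 0, and at an unadjusted p under 0.05 the counts were 8 and 5. *Fbp2*, muscle fructose bisphosphatase, was at 80.1 to 115 CPM (median 93.8) in WT-DHT and at 21.3 to 30.3 (median 24.1) in KO-DHT, a log2 fold change of −1.93 (SE 0.16). Those ranges did not meet. *Ugp2*, which makes UDP-glucose for glycogen, fell by 0.46. In purine nucleotide and creatine kinase metabolism 5 of 12 rose, against 5.13% of all genes (median 0.22). *Prkag3*, a regulatory subunit of AMP-activated kinase typical of fast muscle, was at 70.1 to 107 CPM (median 77.8) in WT-DHT and 164 to 252 (median 222) in KO-DHT, and rose by 1.35 (SE 0.12). *Ckmt2*, mitochondrial creatine kinase, rose by 0.40, and *Ampd1*, muscle AMP deaminase, by 0.36.

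Cytosolic ribosomal protein genes had 11 lower and 1 higher of 77, or 15.6% called against 11.6% of all genes, with a median of −0.12, and −0.044 with library-size scaling. Reads of this family can be shared with processed pseudogenes, which makes its values uncertain. *Rps20* fell by 0.73, from 119 to 142 CPM in WT-DHT to 73.3 to 86.9 in KO-DHT. The higher one, noted after its value was seen, was *Rps10* (1.03), at 0.31 to 1.21 CPM in all 12 libraries. The proteasome list had 2 lower and 0 higher of 37 with edgeR (6.51% and 5.13% of all genes), 2 and 3 with DESeq2, 2 and 1 with limma-voom, and 4 and 8 at an unadjusted p under 0.05. *Psmd8*, a subunit of the proteasome lid, fell by 0.92 and *Psme4*, a proteasome activator, by 0.40.

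Fibre-type lists had 1 called gene each, beside 11.6% of all genes. The slow and fast fibre lists had medians of 0.016 and −0.11, or 0.075 and −0.025 with library-size scaling. Of 15 slow fibre genes only *Sln* was called, and of 15 fast fibre genes only *Actn3* itself. These counts are from edgeR; DESeq2 called 3 fast fibre genes lower and limma-voom 1, and at an unadjusted p under 0.05 the counts were 5 lower and 2 higher. *Sln*, sarcolipin, which binds the calcium pump, was at 1.43 to 5.86 CPM (median 2.96) in WT-DHT and at 8.28 to 16.6 (median 11.7) in KO-DHT, and rose by 1.98 (SE 0.38, edgeR adjusted p = 0.00048). At these low levels all KO-DHT mice were above all WT-DHT mice. The adult myosin heavy chain genes, singled out after their values had been seen, did not pass: *Myh4*, of 2B fibres, had a log2 fold change of −0.14 (SE 0.077), *Myh1* of −0.09, *Myh2* of −0.04 and the slow *Myh7* of −0.04. *Myh7* varied widely between mice, from 35.6 to 292 CPM in WT-DHT and 54.6 to 355 in KO-DHT, and its SE of 0.51 means that a sizeable difference could have gone undetected.

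The Z-disc list had 4 higher and 1 lower of 30 (median 0.11), or 16.7% called, near the 11.6% of all genes. *Myot*, myotilin, was at 617 to 743 CPM (median 680) in WT-DHT and at 797 to 994 (median 948) in KO-DHT, and rose by 0.44 (SE 0.087). *Smtnl2*, a smoothelin-like protein, was at 648 to 928 CPM (median 759) in WT-DHT and at 398 to 512 (median 452) in KO-DHT, and fell by 0.79 (SE 0.11). Neither gene had overlapping groups. Genes of the dystrophin complex and costamere were lower for 4 of 21 and higher for 0 (6.51% and 5.13% of all genes), and the list median of −0.026 became 0.054 with library-size scaling; DESeq2 and limma-voom gave 4 and 0, and an unadjusted p under 0.05 gave 5 and 2. *Fermt2*, kindlin-2, which activates integrins, fell by 0.60. *Cav3*, the caveolin of muscle, fell by 0.43. *Vcl*, vinculin, fell by 0.85, and its exons overlap those of *Ap3m1* on the other strand. *Acta1* fell by 0.51 (SE 0.095), from 24280 to 35230 CPM in WT-DHT to 18890 to 26100 in KO-DHT, ranges that overlapped. *Ankrd23*, a titin-binding ankyrin repeat protein, rose by 0.70.

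Calcium handling was split, with 4 higher and 4 lower of 24, against 5.13% and 6.51% of all genes, and a median of 0.002 (−0.001 with DESeq2 size factors). Besides *Itpr1* and *Sln*, *Cacnb1*, a subunit of the voltage sensor of the T-tubule, rose by 0.48. Of 16 genes of calcineurin and NFAT signalling *Mef2c*, a muscle transcription factor, was the called one and fell by 0.43. *Rcan1*, a calcineurin regulator, did not pass, with a log2 fold change of 0.56 and an edgeR adjusted p of 0.023. With runs of consecutive mouse numbers as a replicate block, *Rcan1* was called (0.81, edgeR adjusted p = 0.00078).

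Neuromuscular junction genes had 5 higher and 1 lower of 19 (median 0.23), against 5.13% and 6.51% of all genes. The lower gene was *Musk*, the receptor kinase that organises the synapse. It was at 72.1 to 94.8 CPM (median 84.5) in WT-DHT and 23.8 to 28.9 (median 25.3) in KO-DHT, and fell by 1.69 (SE 0.12, edgeR adjusted p = 1.6e-10). In contrast, *Chrnb1*, the β subunit of the acetylcholine receptor, was at 10.2 to 14.5 CPM (median 11.4) in WT-DHT and 21.6 to 27.2 (median 24.2) in KO-DHT, and rose by 1.04 (SE 0.076). Acetylcholinesterase, *Ache*, rose by 0.99. All 3 had ranges without overlap. Of the others, noted after their values were seen, *Lrp4* (0.36) and *Chrne* (0.69) were called in 6 and 4 of the 12 fits without 1 mouse. *Myog*, a myogenic factor also on this list (0.97), was called in 6.

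Satellite cell and myogenic factors had 4 higher and 1 lower of 12, against 5.13% and 6.51% of all genes, with a median of 0.30. With runs of consecutive mouse numbers, some of them of a single genotype, fitted as a replicate block, all 4 higher members were no longer called. Their log2 fold changes were then 0.90 to 1.10, with edgeR adjusted p from 0.0128 to 0.0572. *Pax7*, which marks satellite cells, was at 0.92 to 1.35 CPM (median 1.14) in WT-DHT and 1.93 to 3.51 (median 2.57) in KO-DHT, and rose by 1.24 (SE 0.25). *Myf5*, an early myogenic factor, rose by 0.89, from 1.35 to 2.35 CPM to 2.38 to 4.19. *Myod1*, a determination factor also present in fast fibres, fell by 0.85. *Calcr*, noted after its value was seen, was higher (1.04) and was called in 7 of the 12 fits without 1 mouse. In whole muscle, more or fewer cells of a type and more or less RNA per cell cannot be told apart.

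Among atrophy-related ubiquitin ligases and FOXO factors 2 of 16 rose and 2 fell (5.13% and 6.51% of all genes), and the median of −0.05 became 0.033 with library-size scaling. *Fbxo32*, atrogin-1, was at 407 to 731 CPM (median 500) in WT-DHT and at 162 to 257 (median 190) in KO-DHT, and fell by 1.47 (SE 0.15, edgeR adjusted p = 1.4e-07). *Klhl40*, which stabilises thin filament proteins, rose by 0.78 and *Fbxo40*, a muscle F-box protein, by 0.38. Autophagy and lysosome genes had 2 higher and 1 lower of 21 (median 0.022), close to the 11.6% called of all genes. *Ctsb*, a lysosomal protease, rose by 0.32, and *Map1lc3b*, of the autophagosome membrane, by 0.29, and both share exon sequence with a gene of the other strand. *Ctsd*, another lysosomal protease, fell by 0.26 and was no longer called with library-size scaling (adjusted p = 0.079). Muscle heat shock proteins had 2 higher and 0 lower of 18, as with DESeq2, 3 and 0 with limma-voom, and 4 and 1 at an unadjusted p under 0.05, again near the 11.6% of all genes. *Hspb3*, a small heat shock protein, rose by 0.34, and *Hspd1*, a mitochondrial chaperone that overlaps *Hspe1* on the other strand (0.25), was called in 4 of the 12 fits without 1 mouse.

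Glutathione and oxidative stress genes had 5 higher and 2 lower of 25 (median 0.11), against 5.13% and 6.51% of all genes. Beside *Gstm2*, *Gstk1*, a mitochondrial and peroxisomal transferase, was at 11.2 to 13.6 CPM (median 12.3) in WT-DHT and 20.8 to 28.1 (median 24.8) in KO-DHT, and rose by 1.00 (SE 0.077). *Sod2*, mitochondrial superoxide dismutase, rose by 0.29. The lower pair, noted after testing, were the subunits of glutamate-cysteine ligase, which starts glutathione synthesis, *Gclm* (−0.55) and *Gclc* (−0.41). In the methionine cycle 2 of 14 rose and 2 fell, beside the same shares. *Mtr*, methionine synthase, fell by 0.67. *Gamt*, of creatine synthesis, rose by 0.57. *Gnmt* rose by 1.95, at 2 to 24 reads in WT-DHT and 17 to 93 in KO-DHT. Collagens and matrix had 1 lower of 29 (6.51% of all genes), *Col22a1* (−0.86), called in 7 of the 12 fits without 1 mouse. DESeq2 called 2 lower and limma-voom 1, an unadjusted p under 0.05 was met by 7 lower and 0 higher, and 2 of the 29 had a log2 fold change above zero (median −0.11).

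Genes near *Actn3* on chromosome 19 were looked at by gene order. Of the 50 tested genes on each side, 9 of 100 were called, 8 higher and 1 lower, against 11.6% of all genes (5.13% higher and 6.51% lower). On the rest of the chromosome 55 of 462 (11.9%) were called, 21 higher and 34 lower. The median of these neighbours was 0.11, and *Ndufs8*, given above, is 1 of the 8 higher ones. *Grk2*, a kinase of G protein-coupled receptors, was at 39.0 to 86.3 CPM (median 44.1) in WT-DHT and at 114 to 134 (median 123) in KO-DHT, a log2 fold change of 1.30 (SE 0.17, edgeR adjusted p = 5.4e-06). The highest WT-DHT value, 86.3, came from mouse 8, which stood apart from the other WT-DHT mice and still lay below every KO-DHT mouse. Without it the log2 fold change was 1.52. *Bbs1*, a protein of ciliary transport, rose by 0.74, *Peli3*, a ubiquitin ligase, by 0.69, *Ctsf*, a lysosomal protease, by 0.45, and *Rab1b*, of vesicle transport, by 0.38. The lower neighbour was *Ppp6r3* (−0.21), not called with library-size scaling (edgeR adjusted p = 0.14). With runs of consecutive mouse numbers as a replicate block, *Peli3*, *Ctsf* and *Ppp6r3* were not called (edgeR adjusted p = 0.106, 0.0135 and 0.0148).

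Whether the genotype effect differed with DHT was tested as an interaction over all 4 spinalis groups, and 550 genes (3.24%) were called at an adjusted p of 0.05 or less, 228 positive and 322 negative. This test shares the DHT samples with the comparison above, so its values are given only side by side. *Mybph* had the smallest p of the called genes, with a log2 fold change of 4.43 in DHT-treated mice and 0.42 in mice with empty implants, and an interaction of 4.01 (SE 0.27, edgeR adjusted p = 2.2e-09). Its medians were 227 CPM in WT-empty, 10.2 in WT-DHT, 303 in KO-empty and 206 in KO-DHT, so WT-DHT was the group that stood apart. *Tekt1* showed the mirror image, at medians of 1.03, 32.0, 0.79 and 1.29 CPM in the same order of groups, with an interaction of −4.49. *Saraf*, a regulator of store-operated calcium entry, had medians of 150, 499, 162 and 176 CPM and an interaction of −1.65. For both, only the WT-DHT median departed from those of the remaining groups. *Cacna2d4* (interaction −2.87) and *Gstm2* (1.76) completed the genes with the smallest interaction p.

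Other genes differed between genotypes in both treatments. *Smox* had medians of 94.3 CPM in WT-empty, 762 in WT-DHT, 48.0 in KO-empty and 153 in KO-DHT, and an interaction of −1.45. *Mstn* had medians of 125, 257, 59.7 and 81.9 CPM and an interaction of −0.81 (edgeR adjusted p = 0.018). *Actn2* had genotype log2 fold changes of 0.65 with DHT and 0.64 with empty implants, and its interaction of 0.007 did not pass. The study had listed 8 genes for an interaction between genotype and androgen, a list made from these samples and therefore no independent evidence, and all 8 were called here for both genotype under DHT and interaction. Besides *Mybph* and *Itpr1* they included *Spns2*, a sphingosine phosphate transporter that overlaps *Mybbp1a* on the other strand (−1.68 under DHT), *Ttll7*, a tubulin-modifying enzyme (−1.11), and *Syne1*, a nuclear envelope protein (−0.80).

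Mice with empty implants share no sample with the DHT groups. There, 722 genes (4.25%) were called between KO-empty and WT-empty. Leaving *Actn3* out, 1669 of the 1977 genes called under DHT (84.4%) had the same sign with empty implants, against 63.8% of all genes. Called in both were 427, or 21.6% of the DHT list and 59.2% of the other. The number called with empty implants dropped from 722 to 481, 450 or 453 without WT-empty mouse 4, WT-empty mouse 7 or KO-empty mouse 64.

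The gastrocnemius tables of male mice were normalized separately, and sex, muscle and age differ, so directions and calls are compared, not sizes. After the sham operation 928 genes (5.30%) were called between genotypes and after orchidectomy 666 (3.80%). Of 1951 genes called in DHT-treated spinalis and tested in gastrocnemius, 92.2% had the same sign in KO-SHAM against WT-SHAM and 79.8% in KO-ORX against WT-ORX, against 65.5% and 59.4% of all genes. Called in both were 579 for SHAM (29.7% of the spinalis list and 63.0% of the other) and 340 for ORX (17.4% and 51.6%). Beside *Actn3*, 156 genes were called in all 4 genotype comparisons, and all 156 had a single sign, 40 higher and 116 lower. They include *1700001O22Rik*, *Neto2*, *Smox*, *Mstn*, *Gdf11*, *Tmem100*, *Musk*, *Fbxo32* and *Plekho1* among the lower and *E2f2*, *Spag5*, *Chrnb1*, *Tceal7* and *Grk2* among the higher genes.

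Markers of other cells in the tissue gave few calls. Fibroblast, endothelial, pericyte, leukocyte, Schwann cell, erythroid and immediate early gene lists had 0 called genes with edgeR, and DESeq2 called 1 fibroblast marker while limma-voom called 0. At an unadjusted p under 0.05, 2 fibroblast, 1 pericyte and 1 erythroid marker were lower, and 1 endothelial and 1 Schwann cell marker were higher. Of 5 erythroid markers 0 had a log2 fold change above zero (median −0.43), with *Hbb-bs* the most abundant per exon length, and of 8 Schwann cell markers 7 did (median 0.26), with *Pmp22* the most abundant. Their sums overlapped, at 155 to 383 CPM in WT-DHT and 153 to 217 in KO-DHT for the erythroid list and at 53.0 to 87.4 and 63.0 to 101 for the Schwann cell list. All 12 adipocyte markers had positive log2 fold changes, with a median of 0.57 and 0 called by any of the 3 tools, and 2 were higher at an unadjusted p under 0.05. Their summed level was 325 to 853 CPM (median 549) in WT-DHT and 446 to 1470 (median 610) in KO-DHT, with wide overlap, and *Cfd* was the most abundant per exon length. Whether fat in the samples takes part in the higher mitochondrial and lipid genes was not tested. Of the 7 tendon markers, *Scx* was called (−0.88) in 2 of the 12 fits without 1 mouse and not with limma-voom, the list median was −0.62, and the tendon sums overlapped, with 70.5 to 285 CPM in WT-DHT and 71.1 to 195 in KO-DHT. *Krt10* was the 1 epidermal marker in the table, at 1.12 to 2.27 CPM in all 12 libraries, and *Krt5*, *Krt14*, *Krt1*, *Ms4a1* and *Hbb-b1* are not among its genes.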

How the data were processed

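The authors deposited counts of reads per gene, whole numbers without normalization, from stranded total RNA libraries. The submitters' processing notes name STAR 2.7.1b, SAMtools 1.9, Picard 2.20.2, featureCounts and Subread 2.0.0, and the build GRCm39; the strand setting of the counting is not given in the sources used here. GENCODE M21 on GRCm38 gave names for 16920 of 16987 identifiers, chromosomes, gene order, exon lengths and overlaps only, and no coordinates are printed. Of the called genes 522 (26.4%) have exons that overlap a gene of the other strand, against 28.4% of all.

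Columns were grouped by genotype and treatment as the labels name them. The spinalis columns carry mouse numbers that the labels do not, and 45 columns were used for 46 samples, since 6 KO-ORX samples are labelled and 5 columns exist. Counts were fitted with edgeR 4.0.16 in R 4.3.3, with TMM scaling, 1 mean for each of the 4 groups of a table, quasi-likelihood F tests and Benjamini-Hochberg adjustment over all genes; calls needed an adjusted p of 0.01 or less, or 0.05 for the interaction. Log2 CPM used a prior count of 2. The 0.5 CPM filter in 2 samples removed 0 genes. Standard errors were derived from the F statistic. The scripts were first run on simulated counts with known changes. No pair of libraries of a group agreed within sampling noise, the smallest chi-square per degree of freedom being 20.7.

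Named were the α-actinins, the 8 genes with the smallest p in each direction, up to 3 called genes of each list, 5 genes for the interaction, up to 8 called neighbours of *Actn3*, the 8 genes the study named for interaction, *Mstn*, *Odc1*, *Smox*, *Amd1*, *Rcan1* and the most abundant marker of each list; those outside the rule are named as chosen later. Some genes that the rule takes are not reported here. The members and lists were chosen with earlier results of these data known. Another 2 lists, put together after the values were seen, were looked at and are not reported. Alternatives were DESeq2 1.42.0, limma-voom (limma 3.58.1) with and without sample weights, other scalings, filters, thresholds, thinned counts, the 12 DHT libraries alone, and each mouse left out. Figures were drawn with matplotlib 3.10.9 in Python 3.11.15.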

Additional observations from a re-analysis of the deposited data

Results flagged for a closer look

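Among 238 groups of 6 libraries examined, 12 held a mouse whose distance from its nearest neighbour was large against the range of the group, and chance gives about 1 in 20. Depth in WT-DHT mouse 39 was 34.8 M counts against 50.5 to 53.9 M in the others. *Grk2* in WT-DHT mouse 8 was at a log2 CPM of 6.43 against 5.29 to 5.52, and among mice with empty implants WT-empty mouse 7 was at 86.7 CPM while the others of that group were between 41.8 and 46.8. In WT-DHT the log2 CPM of *Cav3* was 6.39 in mouse 39, of *Mrpl28* 5.27 in mouse 39, of *Rps20* 6.89 in mouse 50 and of *Dcn* 9.82 in mouse 5. In KO-DHT it was 1.43 for *Cacna2d4* and 9.30 for *Fbxo40* in mouse 65, 8.61 for *Idh3b* in mouse 6, 9.13 for *Ugp2* and 5.32 for *Mrpl28* in mouse 63, and 6.21 for *Lyz2* in mouse 40.

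Of the 116 genes named by the rule, 43 were called by the edgeR interaction test between DHT and empty implants, against 550 of all 16987 genes (3.24%). Most of the 116 were picked by their p in the same DHT samples, some by the interaction itself, so the size of this count follows from the choice. The interaction log2 fold changes above zero were *Mybph* 4.01, *Gstm2* 1.76, *Ivd* 0.89, *Gstk1* 0.89, *Ociad2* 0.81, *2310016D23Rik* 1.61, *Pitpna* 0.80, *Cpe* 0.60, *Prkag3* 1.09, *Ache* 0.85, *Echs1* 0.61, *E2f2* 1.20, *Obsl1* 0.54, *Sdhb* 0.41, *Ampd1* 0.50, *Idh3b* 0.33, *Map1lc3b* 0.38, *Chrnb1* 0.41 and *Cox6a2* 0.38. Those below zero were *Saraf* −1.65, *Cacna2d4* −2.87, *Tekt1* −4.49, *Ntmt1* −1.61, *Neto2* −3.13, *Itpr1* −0.82, *Plekho1* −1.16, *Mtr* −0.75, *Odc1* −1.21, *Spns2* −1.05, *Smox* −1.45, *Tmem100* −2.02, *Vcl* −0.69, *Syne1* −0.69, *Musk* −0.97, *1700001O22Rik* −3.14, *Amd1* −0.65, *Ttll7* −0.65, *Mef2c* −0.44, *Sms* −0.38, *Mstn* −0.81, *Psmd8* −0.51, *Akt1* −0.35 and *Fbp2* −0.87.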

How the results depend on the processing

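Over the 12 fits that left out 1 mouse, the genes called between KO-DHT and WT-DHT numbered 1594 to 1904, with 710 to 856 higher and 875 to 1061 lower. Under the other tools, scalings and filters, with the 12 DHT libraries alone and after thinning, no called gene changed sign, and counts thinned to the smallest library gave 1866 calls. The 12 DHT libraries alone gave 1940 calls, 1771 of them shared with the main fit, and *Myog*, *Hspd1*, *Col22a1*, *Scx* and *Lrp4* were not called. Thinning ended the calls of *Sat1* and *Chrne*, and limma-voom those of *Scx* and *Acvr2b*. With library-size scaling 687 genes were lower, and 11 of the genes followed were not called: *Eif4ebp1*, *Akt2*, *Ctsd*, *Pfkm*, *Rpl4*, *Rps14*, *Col22a1*, *Scx*, *Ppp6r3*, *Azin1* and *Ndufs4*. Library-size scaling also moved list medians, among them IGF1 signalling to −0.109 and the Z-disc list to 0.192. The mitochondrial ribosome moved to 0.221 and autophagy and lysosome to 0.106. At a threshold of 0.05, 3170 genes were called (1483 higher, 1687 lower), and at 0.01 with log2 fold changes of 1 or more in size, 323 (100 higher, 223 lower). With a mouse left out, KO-empty against WT-empty gave 450 to 700 calls (481, 450 and 453 without WT-empty mouse 4, WT-empty mouse 7 and KO-empty mouse 64) and the interaction 430 to 658. The causes were not tested. With up to 200 neighbours of *Actn3* on each side in place of 50, both chosen after seeing the data, 25 of 254 were called (9.84%), as the chromosome ends sooner on 1 side; windows in Mb were not run because the builds differ.

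With the replicate number as a replicate block the gastrocnemius comparisons gave 921 calls for SHAM and 627 for ORX. Among 11 pairs of equal number and treatment the correlations of deviations between genotypes ran from −0.15 to 0.188. Only 1 library correlated best with its own number. Such correlations cannot show whether samples of equal number share anything else, and this was not tested further. The spinalis columns carry mouse numbers in place of the replicate numbers of the labels, and what these numbers mark is not stated. With 7 runs of consecutive mouse numbers as a replicate block, chosen after seeing the data, 1069 genes were called between KO-DHT and WT-DHT (422 higher, 647 lower), 137 between KO-empty and WT-empty and 388 for the interaction. No gene called between KO-DHT and WT-DHT changed sign under it, and *Rcan1* became called (adjusted p = 0.00078). Of the genes followed 29 were not called under it, among them all 4 higher members of the satellite cell list (*Pax7*, *Myf5*, *Myog* and *Calcr*): the others were *Sln*, *Gnmt*, *Eif4ebp1*, *Akt2*, *Ctsb*, *Map1lc3b*, *Hspb3*, *Hspd1*, *Perm1*, *Ndufv1*, *Pfkm*, *Ckmt2*, *Rpl4*, *Col22a1*, *Scx*, *Ctsf*, *Ppp6r3*, *Peli3*, *Sat1*, *Azin1*, *Acvr2b*, *Lrp4*, *Chrne*, *Ndufs4*, *Rps10*. Log2 fold changes of these lost calls moved little for *Pax7* (1.10 with the block, 1.24 without), *Myf5* (0.94 and 0.89) and *Calcr* (1.03 and 1.04). They shrank more for *Peli3* (0.47 and 0.69) and *Sat1* (0.29 and 0.40). Some of the runs hold mice of a single genotype. Mouse 25 (KO-DHT) stands alone, mice 49 and 50 are WT, and mice 61 to 65 are KO. Such runs hold no direct comparison of the genotypes, so fewer mice inform that comparison under the block. Whether calls were lost through this or through differences between runs was not tested. Over 25 pairs of mice of a run and of different groups the correlations of deviations ran from −0.164 to 0.165, with a median of 0.027. The value of *Gnmt* rests on few reads, 2 to 24 in WT-DHT and 17 to 93 in KO-DHT.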
